A study of Mus musculus with 18 samples.

Results

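The Ube family comprises the mouse genes whose symbols begin with Ube, most of them E2 ubiquitin-conjugating enzymes and a few of them E3 or E4 ligases. Members were chosen by symbol alone: every probe set annotated to a single symbol of this form was taken, which gave 100 of the 45137 probe sets on a pair of Affymetrix mouse array sets, 62 on set A and 38 on set B. They stand for 38 of the 18194 genes named singly on the arrays: set A carries 32 of them, set B carries 24, and 18 are on both. No measured value entered the choice of a member, but the family itself was proposed with earlier results of these arrays known, so its counts below are descriptions and are set beside the same counts over all probe sets. Another 4 probe sets of set A that carry a Ube symbol among several symbols were not members.

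The RNA came from cortical neurons of postnatal day 0 mice, which the sample notes also call embryonic, cultured for 7 days in vitro and depolarized with KCl for 0 h, 1 h or 6 h in 3 independent experiments. The notes on the samples put KCl at 55 mM, and the text on the series puts it at 50 mM. Each array set thus holds 3 arrays at each time, and the 0 h cultures are the only controls, so KCl and the hours of handling cannot be told apart. The neurons carry no genetic change in the labels, and no strain is named. The question posed was which genes change when raised potassium depolarizes the membrane and opens L-type voltage-sensitive calcium channels.

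Ubiquitin is activated by an E1 enzyme, handed to the active-site cysteine of an E2, and attached to a protein with the help of an E3 ligase. The E2 has much of the say over which chain is built: some E2s build chains that send proteins to the proteasome, others build chains used in signalling or attach a single ubiquitin. In neurons this system trims synaptic proteins, and the ligase Ube3a, lost in Angelman syndrome, is a known part of it. Calcium entry through L-type channels acts on transcription in part through CREB, a factor that binds the cAMP response element TGACGTCA and its shorter form TGACG.

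Promoters of 4 members are printed, each of a gene with a probe set that rose with KCl and with these letters in the window shown. Ube2f also met both conditions and is not printed. Ube2b and Ube2h each had a second window that is not printed. That of Ube2b held 1 copy of the short form, and that of Ube2h held none. The sequences are RefSeq windows on build GRCm38.p6, from 250 bases before to 50 bases after an annotated start site, written 5′ to 3′ on the gene's strand, with each TGACG or its reverse complement CGTCA in capitals. A whole element TGACGTCA appears as 1 run of 8 capitals, since both short forms overlap in it. The windows are chr11:52000737-52001036 on the minus strand for Ube2b, chr6:30304490-30304789 on the minus strand for Ube2h, chr4:33031130-33031429 on the plus strand for Ube2j1 and chr10:95514912-95515211 on the plus strand for Ube2n.
Ube2b: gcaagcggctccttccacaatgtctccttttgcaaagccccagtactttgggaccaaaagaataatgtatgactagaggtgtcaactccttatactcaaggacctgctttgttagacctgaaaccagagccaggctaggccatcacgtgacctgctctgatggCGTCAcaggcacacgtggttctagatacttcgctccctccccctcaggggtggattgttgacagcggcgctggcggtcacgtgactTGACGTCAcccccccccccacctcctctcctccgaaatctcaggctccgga
Ube2h: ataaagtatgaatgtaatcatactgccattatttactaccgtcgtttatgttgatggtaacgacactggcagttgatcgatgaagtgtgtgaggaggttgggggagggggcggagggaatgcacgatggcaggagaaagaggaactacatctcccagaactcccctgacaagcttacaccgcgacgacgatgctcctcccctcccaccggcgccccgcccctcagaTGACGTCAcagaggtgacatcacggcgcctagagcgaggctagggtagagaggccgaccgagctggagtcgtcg
Ube2j1: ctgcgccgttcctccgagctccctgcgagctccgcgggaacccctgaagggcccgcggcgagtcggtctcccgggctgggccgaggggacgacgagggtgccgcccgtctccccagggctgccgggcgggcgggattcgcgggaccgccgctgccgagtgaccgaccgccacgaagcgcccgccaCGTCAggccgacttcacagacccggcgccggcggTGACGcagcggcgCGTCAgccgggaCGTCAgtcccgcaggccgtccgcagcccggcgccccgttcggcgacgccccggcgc
Ube2n: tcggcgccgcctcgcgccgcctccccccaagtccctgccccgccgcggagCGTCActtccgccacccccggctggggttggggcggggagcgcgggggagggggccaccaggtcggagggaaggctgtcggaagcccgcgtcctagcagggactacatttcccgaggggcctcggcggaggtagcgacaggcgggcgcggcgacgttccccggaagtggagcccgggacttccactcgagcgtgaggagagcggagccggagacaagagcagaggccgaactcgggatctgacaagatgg

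Windows were found for 32 of the 38 genes, 41 windows in all. The whole element, searched on both strands, lay in the windows of 2 of these genes, Ube2b and Ube2h, which is 4.88% of the Ube windows against 1.79% of all 32851 windows in the table. The short form lay in windows of 10 genes, 26.8% of the Ube windows against 20.8% of all. Ube2j1 held 4 copies within 65 bases before the start site, and Ube2n held 1 copy 200 bases before it. Of the 9 genes with a window and a rise at 1 h or 6 h, 5 held the short form (Ube2b, Ube2f, Ube2h, Ube2j1 and Ube2n), as did 5 of the 23 others. Among all 27025 genes with a window, 23% held it. A rise here means a rise on at least 1 probe set, and among the 9 genes Ube2n and Ube2d3 also had a fall on another. Whether these letters bear on the changes was not tested. No Ube window held the AP-1 letters TGANTCA, found in 7.81% of all windows, or a CArG box, found in 1.63%. Ube2d3, with the largest called change of the family, held none of these letters in its 4 windows.

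Signals are the deposited linear intensities, scaled so that each array's 2% trimmed mean is 500. Changes were fitted on log2(signal + 16) with limma across all probe sets of an array set, and "rose" or "fell" marks a Benjamini-Hochberg adjusted p under 0.05 over that whole set. Set A had 57 of its 62 members, and set B 32 of its 38, that cleared the filter leaving out the lowest 25% of probe sets by mean. The 95th percentile of the bacterial control probes was 74.8 for set A and 369 for set B, and a probe set's residual SD had a median of 0.276 for set A and 0.729 for set B (log2 scale). On set B the 3 arrays numbered 1 held 27.4% to 28% of their values below 0 and the other 6 none, which leaves it in doubt whether all 9 were summarised by the same method. The ratio of the 5′ to the 3′ Gapdh control probes, a sign of RNA and labelling quality, moved with time on set A, from 0.679 to 1.07 on the 0 h arrays, from 1.07 to 1.27 on the 1 h arrays and from 1.17 to 1.26 on the 6 h arrays. Set B moved likewise, with Gapdh ratios of 0.65 to 1.08 in 0 h cultures, 1.08 to 1.31 in 1 h cultures and 1.13 to 1.37 in 6 h cultures. The same ratio for b-Actin was 0.298 to 0.529 in 0 h cultures, 0.614 to 0.711 in 1 h cultures and 0.556 to 0.596 in 6 h cultures of set A. For set B its values were 0.286 to 0.454, 0.593 to 0.728 and 0.508 to 0.616 in the same order. The part of the b-Actin ratio in the Ube values was not tested on either set. The Gapdh ratio was used as a covariate in an alternative fit. In comparisons with 0 h that fit cannot fully tell the ratio from the hours in KCl, since they moved together. Its SE at 6 h on set A was larger, as for Ube2w 1426398_at (0.21 against 0.13). A call lost there does not show an effect of RNA quality.

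On set A, summed signals of 7 neuronal markers kept a like range, 22076 to 23871 at 0 h, 21622 to 24047 at 1 h and 21543 to 23401 at 6 h. Those of 7 astrocyte markers were 19760 to 20422 at 0 h, 14178 to 16677 at 1 h and 12539 to 14611 at 6 h. Their medians moved by -0.35 log2 units at 1 h and -0.17 at 6 h, with 1 of 7 and 3 of 7 past the threshold, all of them lower than at 0 h. At 6 h 2 of the neuronal markers rose and 1 fell, with a median of 0.49. None of the neuronal markers, and 1 of the astrocyte markers in the 0 h and in the 6 h cultures, had a mean within the level of the bacterial controls. Set B had 4 tested astrocyte markers, and none passed at 1 h or 6 h. Their summed signals were 6085 to 9174 at 0 h, 6265 to 8848 at 1 h and 6159 to 8090 at 6 h. The part of the cell mixture in the Ube values was not tested. In RNA from whole cultures, fewer cells of a type and less RNA per cell cannot be told apart.

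After 6 h of KCl more Ube probe sets of set A rose than fell. Of 57 tested probe sets, 18 rose (31.6%) and 3 fell (5.26%), against 10.4% that rose and 11.7% that fell among all 16969 probe sets tested. The median change at 6 h was 0.25 log2 units over the Ube probe sets and -0.05 over all. By gene, 13 of 29 had a probe set that rose, 3 had one that fell, and Ube2d2a and Ube2d3 had both. The like count over all genes is not given here, and genes with more probe sets have more chances of a call. Read on 1 probe set a gene, 10 of 29 Ube genes rose and 2 fell, against 796 and 1382 of 9981 named genes. The Ube probe sets are brighter than most, and among probe sets above the overall median by mean 16 of 51 Ube probe sets rose (31.4%) against 13.6% of all. With the Gapdh ratio as a covariate in the same fit, 6 of the 21 calls were left, 4 rises and 2 falls. The rises were Ube2j1 1448824_at, Ube2w 1426398_at, Ube2d3 1455479_a_at and Ube2g2 1417033_at. Ube2g2 1417033_at had a 0 h mean within the level of the bacterial controls, and its log2 change went from 1.77 to 3.59. The brighter Ube2g2 1417032_at lost its call. The falls were Ube2d2a 1448356_at and Ube2d3 1450859_s_at. Calls over all probe sets dropped to 275 higher and 195 lower.

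At 1 h, 4 Ube probe sets of set A rose (7.02%) and none fell, against 3.25% and 0.913% of all probe sets. In limma 16 of 57 members had an unadjusted p under 0.05, as did 3343 of all 16969 probe sets. The 4 rises belonged to Ube2b, Ube2j1 and Ube2d3, and all 4 also rose at 6 h. Of 18 alternatives, the 1 h call was lost in 6 for Ube2b 1423107_at, 6 for Ube2d3 1455479_a_at, 10 for Ube2j1 1448824_at and 11 for Ube2d3 1455480_s_at. Leaving out any 1 of the 9 arrays moved this count by over 1.5 times, between 0 (without replicate 2 of 0 h or replicate 3 of 1 h) and 8 (without replicate 3 of 0 h). The count was 0 in limma without its intensity trend. With the Gapdh covariate it was 1, on the dim Ube2g2 1417033_at, which had not passed before. Of the 21 probe sets called at 6 h, 17 had not passed at 1 h, although this alone does not show that they started later. Over all probe sets of set A, 552 rose and 155 fell at 1 h, and 1772 rose and 1981 fell at 6 h. Most calls at 6 h over all probe sets had thus not passed at 1 h either.

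Between 1 h and 6 h, where on set A the Gapdh ratios overlapped and the b-Actin ratios, lower at 6 h, did not, 10 Ube probe sets of set A rose and 3 fell, or 17.5% and 5.26% against 5.07% and 6.51% of all. The Gapdh covariate again gave 13 calls here, 12 of them the same probe sets. With each array centred on its median, 11 rose and 2 fell, against 1114 higher and 688 lower over all probe sets, where the deposited scale had 860 and 1104, and the median over all moved from -0.05 to 0.05. Leaving out 1 array gave 5 to 15 calls, the lowest without replicate 2 of 6 h, and 8, 8 and 6 without replicates 1 and 3 of 1 h and replicate 1 of 6 h.

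**Figure D1:**
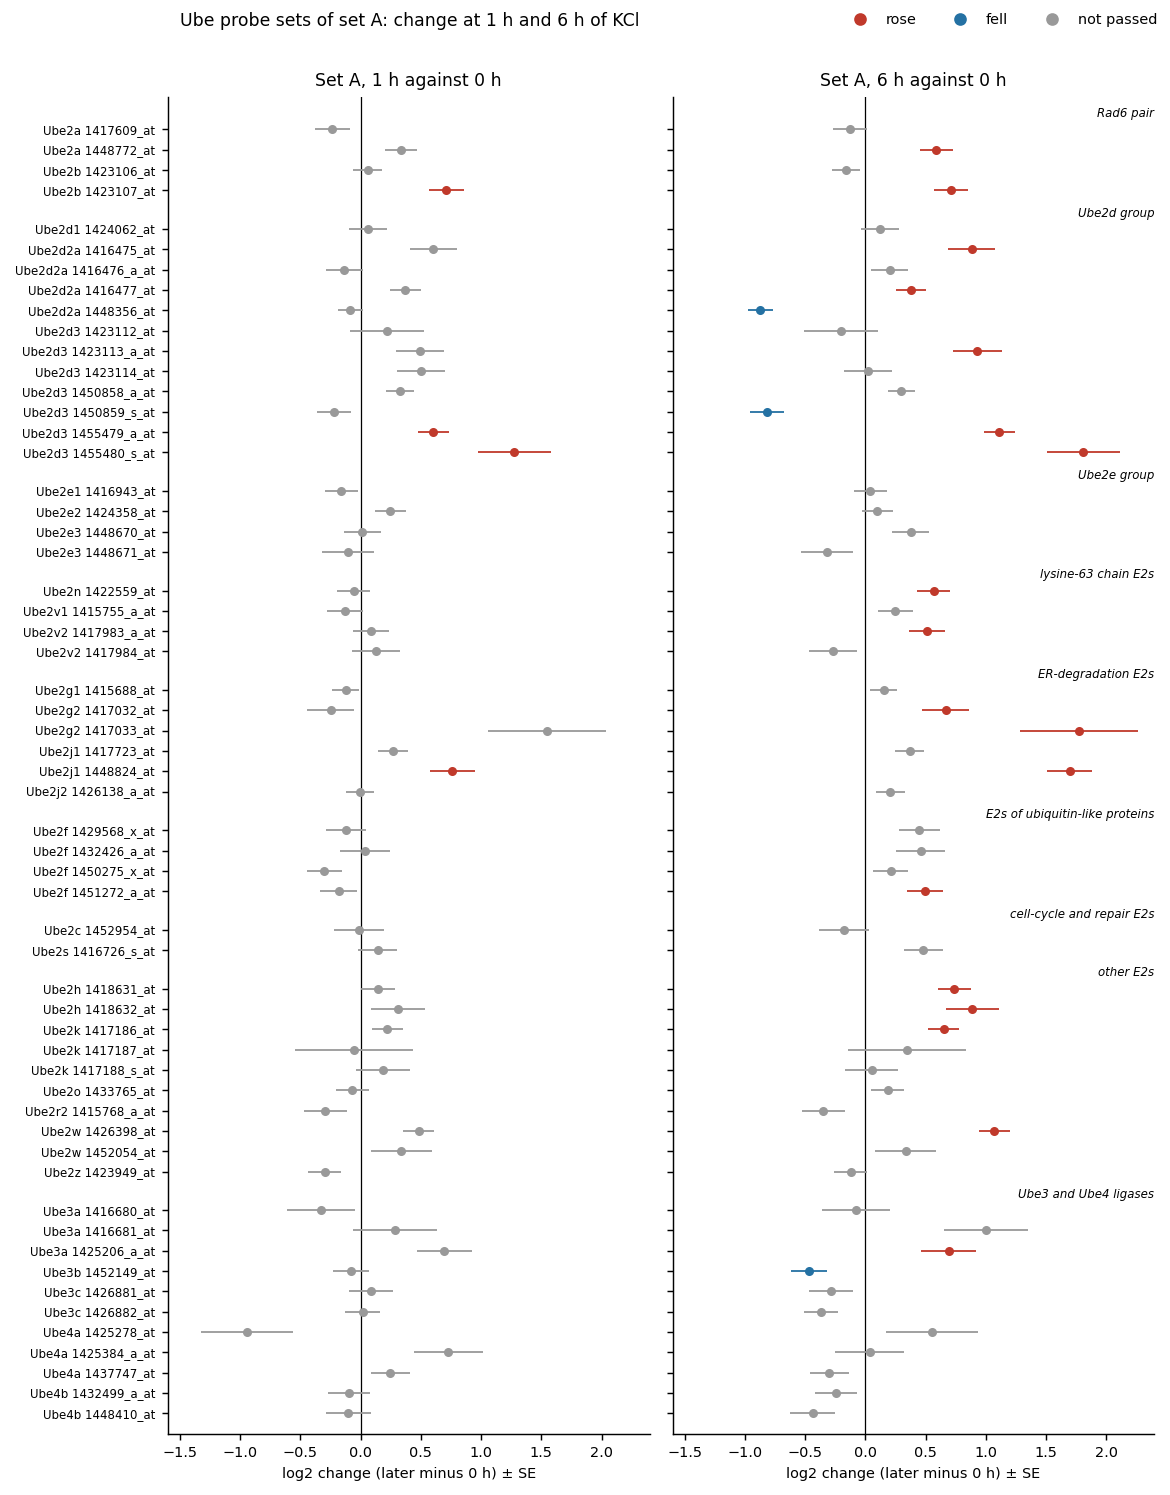
Log2 change of each of the 57 tested Ube probe sets of set A at 1 h (left) and 6 h (right) relative to 0 h, on log2(signal + 16), with bars of 1 SE (3 arrays a time). Red points rose, blue points fell and grey points did not pass; at 6 h most of the red points lie between 0.38 and 1.11, Ube2j1, Ube2g2 and Ube2d3 reach 1.70 to 1.81, and Ube2d2a and Ube2d3 hold points on both sides of 0.

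The E2s of endoplasmic reticulum degradation, which mark misfolded proteins leaving the endoplasmic reticulum, held 3 rises at 6 h. Ube2j1, an E2 anchored in that membrane by its tail, had signals of 357, 213 and 309 at 0 h, 515, 555 and 431 at 1 h and 1005, 913 and 981 at 6 h on probe set 1448824_at. The 3 times did not overlap, and each later time lay above the one before. Ube2j1 1448824_at was 1.70-fold higher at 1 h (log2 change 0.76, SE 0.19, limma adjusted p = 0.0419) and 3.24-fold higher at 6 h (log2 change 1.70, SE 0.19, adjusted p = 6.8e-05). The rise of Ube2j1 1448824_at at 6 h passed under all 18 alternatives, its log2 change between 1.28 and 1.85. The second probe set of Ube2j1, 1417723_at, averaged 1432 at 6 h and 1108 at 0 h and did not pass (log2 change 0.37, SE 0.12, adjusted p = 0.0504). The 2 moved differently at 6 h: the change on 1417723_at minus that on 1448824_at was -1.33 log2 units (SE 0.22, limma adjusted p = 0.012 over all pairs of probe sets of 1 gene).

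Ube2g2, which builds the lysine-48 chains that lead to the proteasome, had 777, 713 and 667 at 0 h, 555, 461 and 850 at 1 h and 1293, 1124 and 1043 at 6 h on 1417032_at. All 6 h arrays stood above all others. The log2 change of Ube2g2 1417032_at was 0.67 (SE 0.20, limma adjusted p = 0.0271, lost in 6 of 18 alternatives) at 6 h against 0 h and 0.91 (SE 0.20, adjusted p = 0.00968) at 6 h against 1 h. The second probe set, 1417033_at, was dim, with 83.1, 95.2 and 6.59 at 0 h, a mean within the level of the bacterial controls, 179, 137 and 191 at 1 h and 206, 212 and 180 at 6 h. Its rise at 6 h (log2 change 1.77, SE 0.49, adjusted p = 0.0206) was 1.03 without replicate 3 of 0 h, the lowest array, and lost its call without replicate 1 or 2 of 6 h (adjusted p = 0.06 and 0.0669). The relatives did not pass: Ube2g1 averaged 2281 at 6 h and 2055 at 0 h, and Ube2j2 averaged 1475 at 6 h and 1275 at 0 h. In all, 3 of the 6 tested probe sets of this group rose at 6 h, where 10.4% of all probe sets rose. The median change of the group was 0.52 log2 units.

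**Figure D2:**
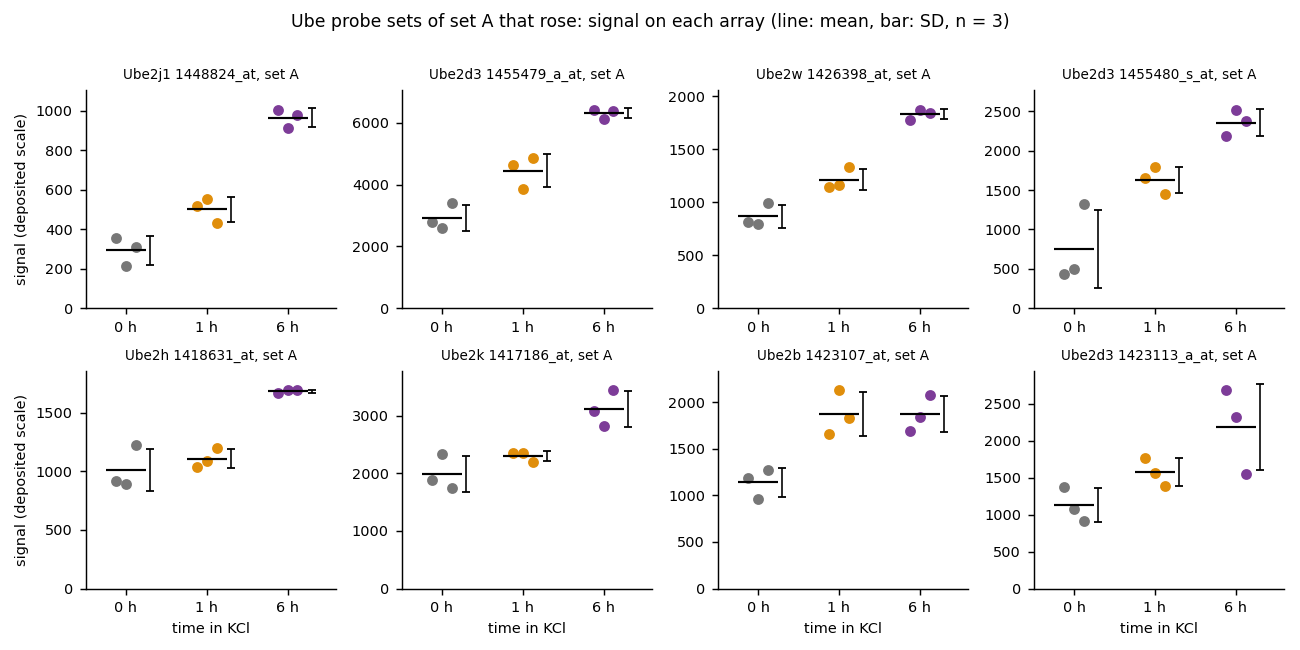
Deposited signal on each array at 0 h, 1 h and 6 h for the 8 Ube probe sets of set A that rose at 6 h with the lowest adjusted p; points are arrays, lines the mean and bars the SD (n = 3 a time). The 6 h arrays lie above all 0 h arrays in each panel, Ube2b is as high at 1 h as at 6 h, and Ube2d3 1455480_s_at has 1 high array at 0 h.

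The Ube2d enzymes work with a wide range of E3 ligases and often place the first ubiquitin on a target. Their 12 tested probe sets of set A divided: 5 rose, 2 fell and 5 did not pass at 6 h, with a median change of 0.25. Among all tested probe sets of set A, 10.4% rose and 11.7% fell. Ube2d3 had 7 of the 12. Probe set 1455479_a_at of Ube2d3 read 2784, 2597 and 3404 at 0 h, 4644, 3852 and 4858 at 1 h and 6421, 6130 and 6388 at 6 h, 3 ranges with no overlap. It was 1.52-fold higher at 1 h (log2 change 0.60, SE 0.13, limma adjusted p = 0.0207) and 2.16-fold higher at 6 h (log2 change 1.11, SE 0.13, adjusted p = 9.1e-05).

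Probe set 1455480_s_at of Ube2d3 read 437, 496 and 1323 at 0 h, 1650, 1788 and 1450 at 1 h and 2186, 2519 and 2373 at 6 h. One 0 h array stood well above the other two yet below every later array. The log2 change was 1.28 at 1 h (SE 0.30, limma adjusted p = 0.0349) and 1.81 at 6 h (SE 0.30, adjusted p = 0.00114), and over the alternatives Ube2d3 1455480_s_at ranged from 0.26 to 1.77 at 1 h and from 0.67 to 2.30 at 6 h. The lowest value at each time came with the Gapdh covariate, where neither passed (adjusted p = 0.921 and 0.341). Ube2d3 1423113_a_at averaged 2182 ± 579 at 6 h and 1123 ± 230 at 0 h (SD, n = 3 each) and rose by a log2 change of 0.93 (SE 0.20, adjusted p = 0.00536). On this design the ending _a_at marks a probe set that matches several transcripts of 1 gene, and _s_at one that may match transcripts of several genes.

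Probe set 1450859_s_at of the same gene went the other way. It read 1333, 1077 and 1396 at 0 h, 979, 1150 and 1113 at 1 h and 660, 717 and 754 at 6 h, with the 6 h arrays below all others. Ube2d3 1450859_s_at was 1.76-fold lower at 6 h than at 0 h (log2 change -0.82, SE 0.14, limma adjusted p = 0.00132) and 1.51-fold lower than at 1 h (log2 change -0.59, adjusted p = 0.0162). The remaining Ube2d3 probe sets did not pass at 6 h: 1450858_a_at had a log2 change of 0.30, 1423114_at one of 0.02 and 1423112_at one of -0.20.

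Ube2d2a showed the same split over 4 probe sets. On 1448356_at it read 4148, 4033 and 3908 at 0 h, 3926, 3854 and 3613 at 1 h and 2285, 2263 and 2037 at 6 h. The 0 h and 1 h arrays overlapped, and the 6 h arrays lay well below both: the signal of Ube2d2a 1448356_at was 1.83-fold lower than at 0 h (log2 change -0.87, SE 0.10, limma adjusted p = 0.000109), and the fall passed under all 18 alternatives. On 1416475_at the same gene read 384, 295 and 456 at 0 h, 695, 503 and 543 at 1 h and 682, 611 and 823 at 6 h, a rise at 6 h (log2 change 0.88, SE 0.19, adjusted p = 0.00611). Ube2d2a 1416477_at rose by less (log2 change 0.38, SE 0.13, adjusted p = 0.0478), lost its call in 12 of 18 alternatives, and 1416476_a_at did not pass (log2 change 0.20, SE 0.15).

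The difference between probe sets of 1 gene was itself fitted, as log2 ratios over all 8511 pairs of tested probe sets of set A that share a gene, a test added after the data had been seen. At 6 h against 0 h, 15 of 52 Ube pairs moved differently (28.8%), against 11.2% of all pairs, and they lay in 4 of 16 genes: 10 in Ube2d3, 3 in Ube2d2a and 1 each in Ube2b and Ube2j1. Between Ube2d3 1450859_s_at and 1455480_s_at the gap was -2.62 log2 units (SE 0.34, adjusted p = 0.00714). At 1 h no Ube pair passed, and 0.834% of all pairs did. A rise on 1 probe set with a fall on another was called at 6 h for 2 of 16 Ube genes with 2 or more tested probe sets (12.5%) and for 72 of 3649 genes in all (1.97%). These shares are not matched for the number of probe sets a gene, of which Ube2d3 had 7 and Ube2d2a 4. The pairs share probe sets and are not independent. With the Gapdh covariate no Ube pair and 1 of the 8511 pairs passed, in a fit that cannot fully tell the ratio from the hours in KCl. Leaving out 1 array gave 5 to 17 pairs, with 8 and 9 without replicates 1 and 2 of 0 h and 7, 6 and 5 without replicates 1, 2 and 3 of 6 h. Where each probe set lies in its transcripts was not examined, so whether distance from the 3′ end goes with these gaps was not tested.

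**Figure D3:**
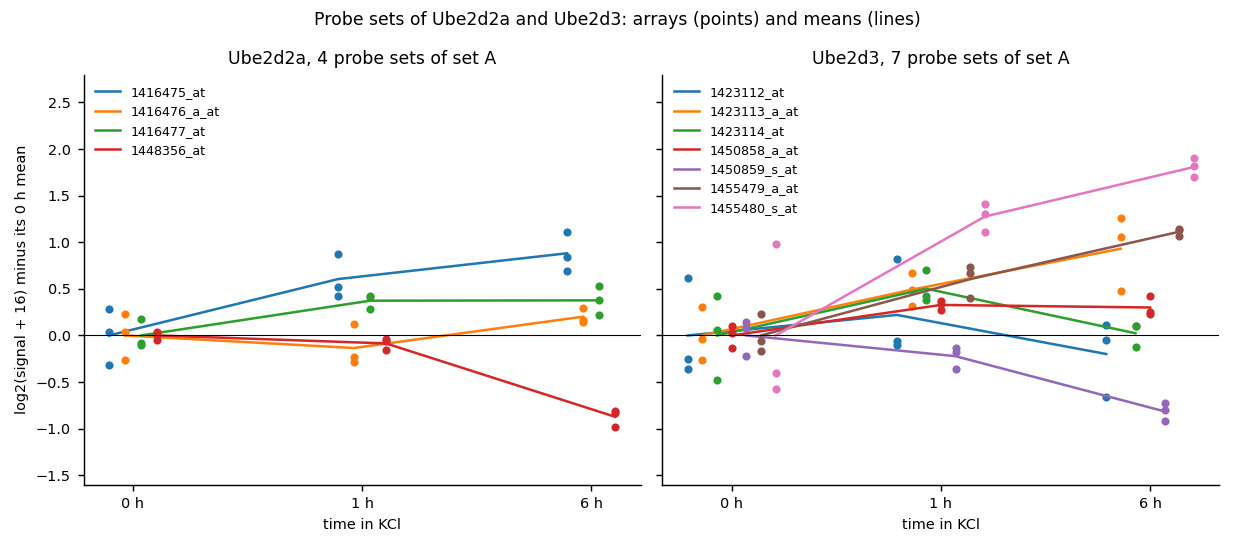
Log2(signal + 16) minus its 0 h mean at 0 h, 1 h and 6 h for the 4 tested probe sets of Ube2d2a (left) and the 7 of Ube2d3 (right) on set A; points are arrays and lines join the means of 3 arrays. In each gene 1 probe set fell, by a log2 change of -0.87 in Ube2d2a and -0.82 in Ube2d3, while those that rose ended between 0.38 and 1.81 and the rest lay between.

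Ube2d1, the third gene of the group, averaged 1612 ± 290 at 0 h, 1677 ± 251 at 1 h and 1746 ± 228 at 6 h (SD, n = 3 each), and did not pass. The related Ube2e enzymes, which carry an extension before the catalytic domain, had no call among 4 probe sets. Ube2e1 averaged 1422 at 6 h and 1379 at 0 h, and Ube2e3 averaged 3615 at 6 h and 2819 at 0 h on 1448670_at (log2 change 0.38, SE 0.15, limma adjusted p = 0.101).

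Ube2a and Ube2b are the mammalian counterparts of yeast Rad6, which places a single ubiquitin on histone H2B and on the replication clamp PCNA. Ube2b read 1185, 961 and 1270 at 0 h, 1661, 2127 and 1832 at 1 h and 1689, 1844 and 2074 at 6 h on 1423107_at. All arrays of both later times lay above those of 0 h, and the 1 h and 6 h arrays overlapped. Ube2b 1423107_at was 1.64-fold higher at each time, with log2 changes of 0.71 (SE 0.14, limma adjusted p = 0.0169) at 1 h and 0.71 (SE 0.14, adjusted p = 0.00391) at 6 h. Its second probe set, 1423106_at, averaged 1226 at 0 h, 1276 at 1 h and 1094 at 6 h. These probe sets moved differently from each other at 6 h: the change on 1423106_at minus that on 1423107_at was -0.87 log2 units (SE 0.20, limma adjusted p = 0.0282).

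Ube2a divided in a like way. On 1448772_at it read 592, 732 and 760 at 0 h, 853, 937 and 840 at 1 h and 1027, 1039 and 1079 at 6 h, and it rose at 6 h (log2 change 0.59, SE 0.14, limma adjusted p = 0.00784). On 1417609_at Ube2a averaged 849 ± 83.3 at 6 h and 930 ± 111 at 0 h (SD, n = 3 each) and did not pass. The 0 h and 6 h arrays were apart on the first probe set and overlapped on the second, but the gap between the 2 probe sets did not pass.

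Ube2n is the E2 that builds lysine-63 chains, used in signalling and DNA repair, and it does so only in a pair with Ube2v1 or Ube2v2, E2-like partners that lack the active cysteine. On set A, Ube2n 1422559_at read 2686, 1856 and 2295 at 0 h, 2071, 2081 and 2348 at 1 h and 3362, 3173 and 3531 at 6 h. Every 6 h array lay above every earlier one, a 1.48-fold rise over 0 h (log2 change 0.57, SE 0.14, limma adjusted p = 0.00997). Ube2v2 1417983_a_at read 913, 871 and 912 at 0 h, 807, 1175 and 916 at 1 h and 1168, 1306 and 1408 at 6 h, and it also rose at 6 h (log2 change 0.51, SE 0.15, adjusted p = 0.0261), with its call lost in 6 of 18 alternatives. Its 6 h arrays lay above those of 0 h and overlapped those of 1 h. The second Ube2v2 probe set, 1417984_at, had a log2 change of -0.27 and Ube2v1 1415755_a_at one of 0.25, and neither passed.

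On set B, other probe sets of these 2 genes fell. Ube2n 1435384_at read 5107, 4095 and 3642 at 0 h, 4161, 3933 and 3659 at 1 h and 2577, 2009 and 1997 at 6 h. The 6 h arrays were the lowest of the 9, at 1.77-fold below 0 h (log2 change -0.83, SE 0.15, limma adjusted p = 0.00548). Ube2v2 1429131_at read 1451, 1273 and 1110 at 0 h, 1433, 1139 and 1197 at 1 h and 885, 687 and 473 at 6 h, again with no overlap between 6 h and the rest, and fell by 1.00 on the log2 scale (SE 0.26, adjusted p = 0.0442). The fall of Ube2v2 1429131_at kept its call in 4 of 19 alternatives, that of Ube2n 1435384_at in 16 of 19. The 2 array sets were scaled separately, so the difference between them was not tested. Nedd4l, a membrane-protein ligase outside the family, likewise rose on its brightest probe set of set A (log2 change 0.83, SE 0.13, adjusted p = 0.000562) and fell on that of set B (log2 change -2.19, SE 0.49, adjusted p = 0.0217).

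**Figure D4:**
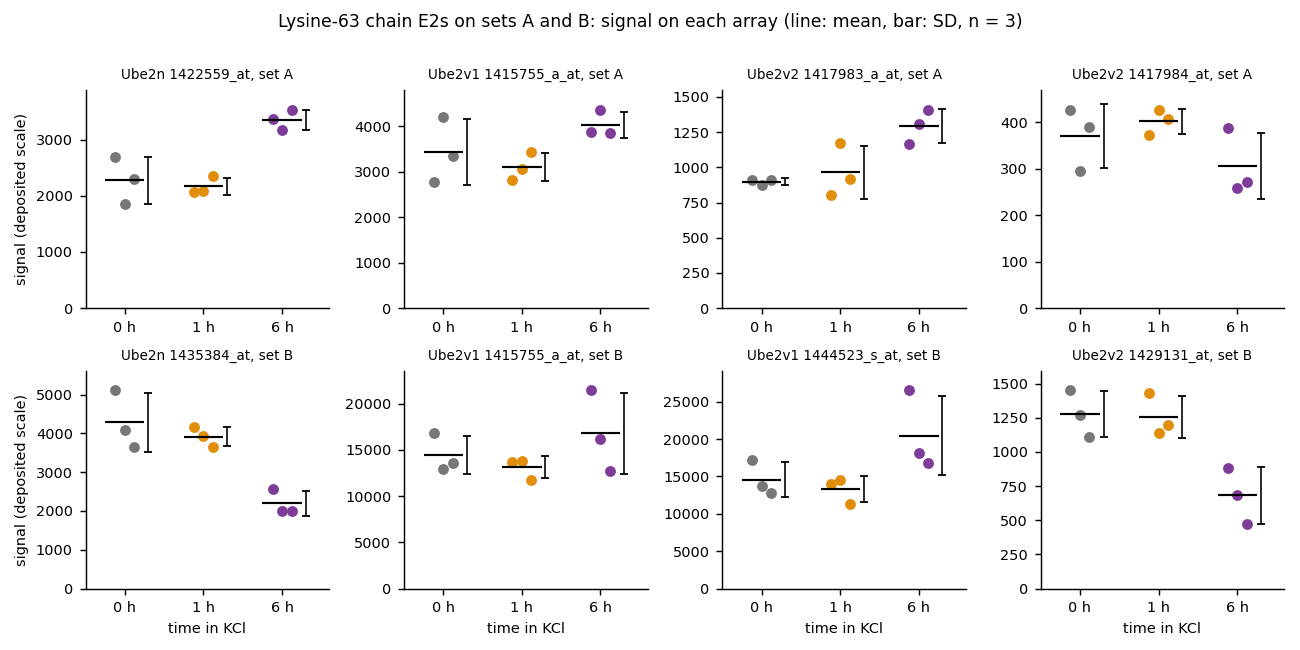
Deposited signal on each array at 0 h, 1 h and 6 h for probe sets of Ube2n, Ube2v1 and Ube2v2 on set A (top) and set B (bottom); points are arrays, lines the mean and bars the SD (n = 3 a time). Ube2n and Ube2v2 are highest at 6 h on set A in 1422559_at and 1417983_a_at and lowest at 6 h on set B; the fits of set B used quantile-normalized values.

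In all, set B gave few calls. At 1 h no Ube probe set passed in limma, while 0.178% of all 16883 probe sets rose and 0.0415% fell. In limma 1 of 32 members had an unadjusted p under 0.05, as did 999 of all 16883 probe sets. At 6 h none rose and 2 fell (6.25%), against 2.2% and 2.8% of all. With the replicate number as a block, 4 passed at 6 h, the same 2 falls plus rises of Ube2v1 1444523_s_at (log2 change 0.49, SE 0.12, adjusted p = 0.0184) and Ube2h 1428791_at (log2 change 0.42, SE 0.11, adjusted p = 0.0392). The count at 6 h was 1 without any of 7 of the 9 arrays (all but replicate 2 of 1 h and replicate 1 of 6 h), 1 without the 3 arrays numbered 1, and 0 with the Gapdh covariate, with limma without trend or with each array centred on its median.

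Between 1 h and 6 h, 2 Ube probe sets of set B rose and 1 fell, against 0.965% and 1.39% of all. Ube2ql1, a little-studied E2-like gene, read 23570, 19424 and 20701 at 0 h, 16202, 14160 and 15562 at 1 h and 27239, 21635 and 20722 at 6 h on 1452779_at. Its 6 h arrays overlapped those of 0 h, and the rise of 0.64 log2 units over 1 h (SE 0.12, limma adjusted p = 0.0159) followed 1 h values that lay below 0 h without passing. Ube2v1 1444523_s_at averaged 20462 at 6 h and 13283 at 1 h (log2 change 0.62, SE 0.14, adjusted p = 0.0332), and Ube2n 1435384_at fell by 0.77 on the log2 scale (SE 0.15, adjusted p = 0.0146). Of 19 alternatives, the call was lost in 8 for Ube2ql1, 12 for Ube2v1 and 6 for Ube2n. The block added Ube2v2 1429131_at (log2 change -0.99, adjusted p = 0.0258) and Ube2g1 1455094_s_at (log2 change -0.82, adjusted p = 0.045). This count was 1 without the arrays numbered 1, 1 without replicate 1 or 3 of 1 h or replicate 2 or 3 of 6 h, and 0 on the deposited scale.

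Several E2s outside these groups rose at 6 h on set A. Ube2w, which attaches ubiquitin to the first residue of a protein chain, read 814, 795 and 993 at 0 h, 1146, 1164 and 1330 at 1 h and 1778, 1871 and 1843 at 6 h on 1426398_at. The 3 times did not overlap, and Ube2w 1426398_at was 2.10-fold higher at 6 h (log2 change 1.07, SE 0.13, limma adjusted p = 0.000118), a rise that passed under all 18 alternatives. At 1 h its log2 change of 0.48 (SE 0.13) missed the threshold with an adjusted p of 0.0557. The dimmer 1452054_at averaged 194 at 6 h and 151 at 0 h and did not pass.

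Ube2h, which works with the CTLH ligase complex, had 2 tested probe sets on set A and both rose. Ube2h 1418631_at read 919, 895 and 1222 at 0 h, 1042, 1088 and 1201 at 1 h and 1668, 1692 and 1692 at 6 h, with a log2 change of 0.74 (SE 0.14, limma adjusted p = 0.00238) at 6 h. Ube2h 1418632_at read 336, 262 and 489 at 0 h, 536, 340 and 465 at 1 h and 649, 677 and 667 at 6 h, with a log2 change of 0.89 (SE 0.22, adjusted p = 0.0123). In both, the 0 h and 1 h arrays overlapped and the 6 h arrays stood above them.

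Ube2k, an E2 that binds huntingtin, read 1880, 2337 and 1748 at 0 h, 2356, 2359 and 2201 at 1 h and 3082, 2818 and 3441 at 6 h on 1417186_at. Ube2k rose at 6 h on this probe set (log2 change 0.65, SE 0.13, limma adjusted p = 0.00375). Of its dimmer probe sets, 1417188_s_at had a log2 change of 0.05, 1417187_at lay within the level of the bacterial controls, and neither passed. Ube2o, a large enzyme with both E2 and E3 activity, averaged 1144 at 6 h and 1008 at 0 h, and did not pass. Ube2r2, an E2 of cullin-based ligases, averaged 992 ± 21.5 at 6 h and 1273 ± 120 at 0 h (SD, n = 3 each), all 6 h arrays below all 0 h arrays, with a log2 change of -0.35 (SE 0.18, adjusted p = 0.191). Ube2z, which takes ubiquitin from the E1 Uba6, averaged 1153 at 6 h and 1258 at 0 h, without a call. Of the 10 tested probe sets in this mixed group 4 rose and none fell, against 10.4% and 11.7% of all, with a median of 0.34.

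Probe sets 1415688_at (Ube2g1), 1415755_a_at (Ube2v1) and 1415768_a_at (Ube2r2) are on both array sets. Their log2 changes at 6 h were 0.15, 0.25 and -0.35 on set A and 0.08, 0.19 and -0.46 on set B. The signs were the same on both sets, none passed on either, and whether arrays of both sets share an RNA sample is not stated in the sources used here.

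Ube2f hands the ubiquitin-like protein Nedd8 to a cullin. Of its 4 tested probe sets, 1451272_a_at rose at 6 h, with 504, 530 and 422 at 0 h, 422, 403 and 450 at 1 h and 766, 651 and 655 at 6 h (log2 change 0.50, SE 0.15, limma adjusted p = 0.0329). The 6 h arrays were the highest, and against 1 h that probe set (log2 change 0.68, SE 0.15, adjusted p = 0.0126), 1450275_x_at (0.51, adjusted p = 0.0376) and 1429568_x_at (0.57, adjusted p = 0.0438) all rose. The call was lost in 6 of 18 alternatives for 1451272_a_at against 0 h, and against 1 h in 7 for 1450275_x_at and 8 for 1429568_x_at. The 2 _x_at sets may bind other transcripts. The fourth, 1432426_a_at, averaged 379 at 6 h and 283 at 1 h and did not pass. Ube2l6, the E2 of the interferon-induced modifier Isg15, lay at 1.30 to 53.8 over the 9 arrays, within the level of the bacterial controls, and was not tested.

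Ube2c and Ube2s start and extend chains for the anaphase-promoting complex in mitosis. Neither had a call. Ube2c averaged 562 ± 157 at 6 h and 622 ± 77.4 at 0 h, and Ube2s 5268 ± 618 at 6 h and 3824 ± 932 at 0 h (SD, n = 3 each), with an adjusted p of 0.0521 in limma for Ube2s 1416726_s_at. Ube2t, an E2 of DNA crosslink repair, stayed between 9.26 and 44.4 on set A. The summed signal of 7 tested markers of dividing cells was 2487 to 3129 at 0 h, 2553 to 3212 at 1 h and 1986 to 2902 at 6 h.

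Of 11 tested probe sets of the ligases Ube3a, Ube3b, Ube3c, Ube4a and Ube4b on set A, 1 rose and 1 fell at 6 h, where 10.4% of all probe sets rose and 11.7% fell, and the median change was -0.25 log2 units. Their difference from the E2s was not tested. Ube3b, a HECT ligase lost in Kaufman oculocerebrofacial syndrome, read 926, 868 and 925 at 0 h, 930, 740 and 917 at 1 h and 637, 566 and 766 at 6 h, and fell 1.38-fold at 6 h (log2 change -0.47, SE 0.15, limma adjusted p = 0.0428). The 6 h arrays lay below all 0 h arrays, and the call was lost in 10 of 18 alternatives.

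Ube3a had 3 tested probe sets, and 1 of them passed at 6 h. The brightest, 1416680_at, read 505, 712 and 435 at 0 h, 710, 310 and 351 at 1 h and 624, 501 and 425 at 6 h, with wide overlap and no call. Ube3a 1425206_a_at read 121, 110 and 131 at 0 h, 204, 209 and 203 at 1 h and 206, 166 and 250 at 6 h, and rose at 6 h (log2 change 0.69, SE 0.23, limma adjusted p = 0.0441). All later arrays lay above 0 h, yet the call at 6 h was lost in 10 of 17 alternatives, and at 1 h the same change of 0.69 had an adjusted p of 0.108. The dim 1416681_at read 137, 148 and 149 at 6 h and 60.7, 45.3 and 93.2 at 0 h, a 0 h mean within the level of the bacterial controls, and did not pass (adjusted p = 0.0561), and 1416682_at was below the filter.

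Ube3c, a ligase found on the proteasome, averaged 900 ± 110 at 6 h and 1166 ± 138 at 0 h on 1426882_at, and 586 ± 27.5 at 6 h and 731 ± 171 at 0 h on 1426881_at (SD, n = 3 each). Ube4b, an enzyme that lengthens chains begun by others, averaged 733 ± 53.8 at 6 h and 1000.2 ± 121 at 0 h on 1448410_at. None of these passed, though their 6 h means were all lower. Ube4a, its close relative, had 2 calls of opposite sign between 1 h and 6 h.

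Ube4a 1437747_at read 413, 425 and 399 at 1 h and 295, 273 and 264 at 6 h and fell (log2 change -0.55, SE 0.16, limma adjusted p = 0.0482), a call lost in 11 of 18 alternatives. Ube4a 1425278_at read 25.8, 74.4 and 31.4 at 1 h, within the level of the bacterial controls, and 181, 141 and 115 at 6 h, and rose (log2 change 1.50, SE 0.38, adjusted p = 0.0242). Against 0 h neither passed at 6 h. The 1 h and 6 h arrays were apart in each case, but the second starts from values too dim to size the change.

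The rest of the ubiquitin pathway, taken from lists chosen with earlier results known and read on the brightest probe set of each gene, was set beside the Ube genes read the same way, of which 10 of 29 rose and 2 fell at 6 h on set A. Over all 9981 named genes 796 rose and 1382 fell, with a median of -0.11 log2 units against 0.21 over the Ube genes. The difference between lists was not tested, and calls of the list genes were not followed through the alternatives. Of 5 tested E1 genes 1 rose, Uba3, a subunit of the E1 for Nedd8, which averaged 870 at 6 h and 522 at 0 h (log2 change 0.79, SE 0.23, limma adjusted p = 0.0268). Sae1, the Sumo counterpart, averaged 3890 at 6 h and 3565 at 0 h and did not pass, nor did Nae1 (log2 change -0.26). None of 5 modifier genes passed, Nedd8 at 4545 at 6 h and 4335 at 0 h and Sumo3 at 1736 at 6 h and 1843 at 0 h.

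Of 6 E2 genes without the prefix, Cdc34, an E2 of cullin-based ligases and a relative of Ube2r2, rose (1211 at 6 h, 927 at 0 h, log2 change 0.38, SE 0.13, limma adjusted p = 0.0486), while Atg3 and Ufc1 did not pass (log2 changes 0.08 and -0.14). Of 11 HECT ligases 1 rose and 2 fell: Nedd4l, given above, Nedd4 (log2 change -0.48, SE 0.14, adjusted p = 0.0243) and Wwp2 (log2 change -0.94, SE 0.23, adjusted p = 0.0102). Trip12 and Huwe1 had log2 changes of 0.44 and -0.01 without a call.

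Of 33 RING and other ligase genes, 4 rose and 1 fell. Cul3, a cullin scaffold, averaged 2092 at 6 h and 720 at 0 h (log2 change 1.54, SE 0.16, limma adjusted p = 4.7e-05), Rnf11 rose (log2 change 0.69, SE 0.14, adjusted p = 0.00336) and Cul4a fell (log2 change -1.14, SE 0.28, adjusted p = 0.0104). Siah2, a ligase of the hypoxia response, was the only gene of these lists called at 1 h, at 782 in 1 h cultures and 279 in 0 h cultures (log2 change 1.44, SE 0.15, adjusted p = 0.000164), and it stood at 455 in 6 h cultures (log2 change 0.68 against 0 h, adjusted p = 0.00734). Trim2 and Stub1 were bright and did not pass (log2 changes -0.21 and 0.04).

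Deubiquitinases remove ubiquitin, and their list here also held enzymes that remove Sumo. Of 41 tested genes of this list, 6 rose and 4 fell at 6 h. Usp14, which trims chains at the proteasome, averaged 1577 at 6 h and 657 at 0 h (log2 change 1.26, SE 0.24, limma adjusted p = 0.00255), Usp15 rose by 1.12 on the log2 scale (SE 0.21, adjusted p = 0.0024), Usp3, which acts on histones, by 1.06 (SE 0.17, adjusted p = 0.000924), and Uchl5, another proteasome enzyme, fell by 0.82 (SE 0.16, adjusted p = 0.00365). Uchl1, an abundant neuronal enzyme, averaged 9870 at 6 h and 9026 at 0 h and did not pass, nor did Usp47 (log2 change -0.09).

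On set B at 6 h, 1 of 15 HECT ligases rose and 2 fell, and 1 of 19 RING and other ligases rose. Of 29 genes of the deubiquitinase list 3 fell. Over all 8012 named genes 235 rose and 363 fell. Trim9, a neuronal RING ligase, and Herc3, a HECT ligase, rose (log2 changes 1.50 and 0.66), while Smurf1, a HECT ligase, and the deubiquitinases Usp46 and Cyld fell (log2 changes -0.64, -1.37 and -1.08), as did Senp7, which removes Sumo (log2 change -0.94).

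**Figure D5:**
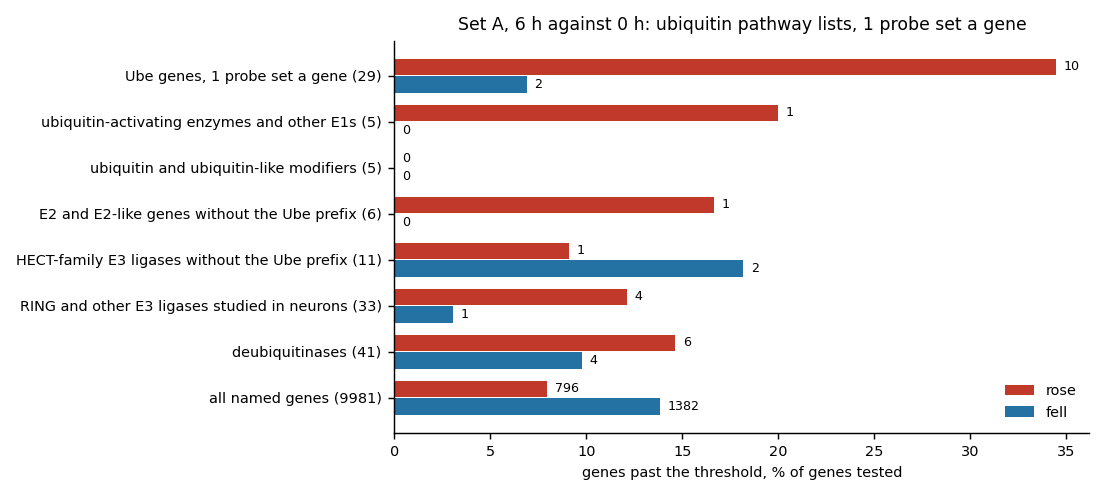
Share of tested genes that rose (red) or fell (blue) at 6 h against 0 h on set A in each ubiquitin pathway list, 1 probe set a gene; the number tested is in brackets and the number called is beside each bar. The Ube genes have 10 rises and 2 falls of 29, and all named genes 796 rises and 1382 falls of 9981.

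The members left out for low values were Ube2d2b, Ube2l6, Ube2t, Ube2s 1430962_at and Ube3a 1416682_at on set A, and 1 probe set each of Ube2b, Ube2cbp, Ube2d2a, Ube2j2, Ube2v2 and Ube2z on set B. Many of the 30 uncalled members of set B at 6 h had means within the level of the bacterial controls at all 3 times. They were Ube2b 1430177_at, Ube2f 1436254_at, Ube2k 1443148_at and 1444212_at, Ube2ql1 1447477_at and Ube2t 1442398_at. So were Ube2u 1437609_at, Ube2w 1443188_at and 1457544_at, Ube3a 1445727_at and Ube4b 1444465_at. Brighter ones were Ube2q1 1429311_at, at 4816 in 6 h cultures and 4861 in 0 h cultures, and Ube2h 1428791_at, at 7665 in 6 h cultures and 6085 in 0 h cultures. The Ube3a probe sets of set B read from 244 to 3025 on 1431224_at and from 71.9 to 313 on 1445727_at, and 1431224_at was highest on the arrays numbered 1 at every time.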

How the data were processed

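RNA of 9 cultures per array set was hybridised to Affymetrix mouse sets A and B, from 200 ng of total RNA labelled as biotin cRNA, per the labels' protocols. The deposited values are linear intensities scaled by the authors; the summary method is not given in the sources used here. Negative values were raised to 0 and the fits used log2(value + 16). Set A kept the deposited scale and set B was quantile-normalized, because its array medians spanned 0.557 log2 units. Control probe sets and the 25% with the lowest mean were left out. limma 3.58.1 in R 4.3.3 was fitted with an intensity trend to the 3 times of each array set, with Benjamini-Hochberg adjustment over all probe sets of a set and comparison, and was tested on simulated data. Residuals of same-numbered arrays correlated by 0.150 to 0.476 on set B, against -0.308 to 0.197 for other arrays, of which those numbered 2 and 3 gave 0.132 to 0.197. All same-numbered values being over 0.1, the number was treated as a possible pairing of set B arrays and used as a block in an alternative fit. These ranges overlap, and the values between numbers 2 and 3 are over 0.1 as well, so this mark cannot show pairing. Calls on set B are from the fit without the block unless the block is named.

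The members and lists were chosen with earlier results of these data known. Probe sets were named by a rule: up to 10 rises and 10 falls per comparison, a preset roster of family members, and per list up to 4 called and 2 bright uncalled genes. The fit of pairs of probe sets, without a trend, was added after seeing the data. Gene symbols are those of the array annotation. Promoters are RefSeq windows. Alternatives changed the scale, pseudocount, filter, trend, replicate block, Gapdh covariate and arrays used.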

Additional observations from a re-analysis of the deposited data

How the results depend on the processing

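No called change of a Ube probe set reversed under any alternative run. The calls of genes in the other ubiquitin pathway lists were not followed through the alternatives. On set A the Ube calls kept their side of the threshold in 39 of 72 alternative fits at 1 h. The like counts were 315 of 376 at 6 h against 0 h and 187 of 233 at 6 h against 1 h. On set B they were 20 of 38 at 6 h against 0 h and 31 of 57 at 6 h against 1 h. The Gapdh ratio as a covariate gave 1 Ube call in place of 4 at 1 h on set A, 6 in place of 21 at 6 h, 0 in place of 2 at 6 h on set B and 0 in place of 15 pairs. limma without a trend gave 0 at 1 h and 8 in place of 13 at 6 h against 1 h on set A, and 0 for both comparisons with 6 h on set B. Without a filter the count at 1 h on set A was 2 and that at 6 h on set B was 1. On set B, the deposited scale gave 1 at 6 h against 0 h and 0 in place of 3 at 6 h against 1 h, a pseudocount of 64 gave 1 and 0, centring each array on its median gave 0 and 0, and leaving out the 3 arrays numbered 1, an alternative chosen after seeing the data, gave 1 and 1. The cause of these moves was not tested.

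Leaving out 1 array gave 0 to 8 Ube calls at 1 h, 15 to 21 at 6 h against 0 h and 5 to 15 at 6 h against 1 h on set A, 0 to 0, 1 to 2 and 1 to 3 on set B in the same order, and 5 to 17 pairs. The count of 0 at 1 h on set B held under every alternative run in limma. With the replicate number as a block, set B had 4 calls at 6 h against 0 h and 5 at 6 h against 1 h, and set A had 6, 22 and 13, with 13 pairs. On set A same-numbered arrays correlated by 0.018 to 0.174, against -0.137 to 0.0343 for others. Not all of the same-numbered values were over 0.1, the mark used for set B, so the numbers of set A were not taken as pairs. This mark cannot show that the arrays of set A are unpaired. On set A the block added Ube2w 1426398_at (adjusted p = 0.0375) and Ube2d3 1423113_a_at (0.0414) at 1 h and Ube2s 1416726_s_at (0.0127) and Ube2j1 1417723_at (0.0493) at 6 h, and took away Ube3a 1425206_a_at at 6 h; at 6 h against 1 h it added Ube2d3 1423113_a_at (0.0369) and took away Ube4a 1437747_at.

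Over all probe sets, the counts higher and lower at 1 h on set A were 552 and 155, against 223 and 42 without a trend, 61 and 1 with the Gapdh covariate and 729 and 293 with the block. Centring arrays on their medians gave 497 and 226, with the median over all at -0.10. At 6 h on set B they were 372 and 472, against 89 and 61 without a trend, 75 and 62 with the Gapdh covariate, 46 and 81 after centring, 187 and 256 on the deposited scale and 634 and 836 with the block. The 3 arrays a time limit the precision, and on set B 363 of the 372 rises and 463 of the 472 falls lay above the overall median by mean signal.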
